A study of Mus musculus with 12 samples.

Results

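The comparison described here sets 3 hippocampal libraries labelled p75NTRko against 3 labelled WT, in mice without disease transgenes. Both groups were 2 months old and had received BrdU, a thymidine analogue incorporated by dividing cells. The label p75NTRko stands for a knockout of the p75 neurotrophin receptor, whose gene is Ngfr. The labels used here name neither the allele, nor the deleted exons, nor the strain of either group, and they call the replicates biological without tying them to animals. The series holds 12 libraries in all, and the other 6 came from 5xFAD mice, which express human Alzheimer's disease transgenes in neurons from a Thy1 promoter, with or without the receptor label. Members of the comparison were the 12560 autosomal genes that passed an expression filter, out of 13065 genes tested and 24421 in the table. Levels are CPM, counts scaled to a common library size, and per-library values always follow the order of replicates 1, 2 and 3.

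p75NTR belongs to the tumour necrosis factor receptor family. It binds mature neurotrophins together with Trk receptors, and proneurotrophins together with sortilin-family receptors, and can signal for survival, growth arrest or death. In the adult brain it is best known on cholinergic neurons of the basal forebrain, whose axons reach the hippocampus. The hippocampus itself contains the dentate gyrus, where new granule neurons form from progenitors throughout adult life, and the CA fields, whose pyramidal cells carry its output.

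Gene-assigned counts per library ran from 4316739 to 6683613 over the 6 libraries, so that 3 counts, taken as the floor of measurement, corresponded to 0.446 to 0.690 CPM. Several properties of the libraries moved with the labels or set single libraries apart. Xist, the RNA of the inactive X chromosome, was high in all 3 WT libraries and in p75NTRko-labelled replicate 1, at 376 to 396 CPM, and low in p75NTRko-labelled replicates 2 and 3, at 1.84 and 1.64 CPM. The WT libraries were less alike than the p75NTRko-labelled ones, with rank correlations of 0.973 to 0.983 against 0.986 to 0.989. On the first principal component of the 6 libraries, which held 39.2% of the variance, WT replicate 2 lay at -40.2, WT replicate 1 at -16.9 and WT replicate 3 at 9.41, with the p75NTRko-labelled libraries at 11.1 to 18.4. WT replicate 3 thus lay nearest to the other group. For the larger of each list's counts, values are therefore also given without single libraries or with Xist class as a term in the fit, where these moved it by over 1.5 times. Hippocampal markers were present in all 6 libraries, such as C1ql2 of granule cells (29.6, 44.5 and 68.7 CPM in WT, 70.4, 98.6 and 72.99 CPM in p75NTRko-labelled) and Neurod6 of pyramidal cells (289, 308 and 399 and 459, 525 and 551 CPM). Among 2058 genes whose 3 against 3 libraries did not overlap, it lay closer to the p75NTRko-labelled mean than the mean of the other two WT libraries did in 1488 (72.3%), against 1004 for WT replicate 1 and 774 for WT replicate 2.

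The gene named by the label was examined first. Ngfr (chr11:95568818-95587698 in GRCm38) had 6, 12 and 1 counts in the WT libraries and 42, 32 and 40 in the p75NTRko-labelled ones, or 0.897, 1.95 and 0.166 CPM against 7.79, 7.36 and 5.95 CPM. Every p75NTRko-labelled library was higher than every WT library, the opposite of what the label names, and the log2 fold change was 2.77 (SE 0.468, adjusted p 0.0822, edgeR). Reads of this assay come from the 3′ ends of transcripts, and a 3′ tag outside a deleted stretch does not test a deletion. Since the allele is not named, whether these tags lie inside it is not known here, and directions below refer to the libraries as labelled.

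Across the autosomes, no gene passed an adjusted p of 0.05 in edgeR's quasi-likelihood test (0 of 12560, 0%). An unadjusted p under 0.05 was reached by 664 genes that were higher (5.29%) and 769 that were lower (6.12%), and the libraries of the groups did not overlap for 1000 higher (7.96%) and 1058 lower genes (8.42%). These shares are the background for the counts of list members given below. Under other settings the background differs. At an unadjusted p under 0.05 it was 9.44% higher and 9.31% lower without WT replicate 3. With Xist class as a term it was 2.52% and 3.50%. Leaving out any other single library gave 3.38% to 4.37% higher and 3.95% to 5.13% lower. The median log2 fold change over all autosomal genes was -0.00041. DESeq2, run on the same counts, called 49 of 12542 genes (0.391%), 13 higher and 36 lower, and for all 49 the 3 libraries of a group lay wholly on their own side. Since nothing passed in edgeR, differences between p75NTRko-labelled and WT libraries are given as levels and fold changes. Their adjusted p-values from that edgeR test all exceed the threshold.

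Psmd4, Med1, Thpo and Chchd2 led the 12 genes named for lying above WT, the 12 being those with the smallest p among genes without overlap and with a mean of at least 5 CPM. Psmd4 (chr3:95032688-95042614), the subunit of the 26S proteasome that receives ubiquitinated proteins, was at 212, 234 and 209 CPM in WT and 320.1, 355 and 367 CPM in p75NTRko-labelled libraries, a log2 change of 0.67 (SE 0.09696, adjusted p 0.0774, edgeR). Med1 (chr11:98152154-98193313), the Mediator subunit that contacts nuclear receptors, was at 90.6, 67.5 and 101 CPM against 174, 168 and 128 CPM, or 0.86 on the log2 scale (SE 0.141, adjusted p 0.0822, edgeR). In Psmd4 the gap between the groups was wider than the spread within either, and in Med1, where p75NTRko-labelled replicate 3 lay nearest to WT, it was narrower. Thpo (chr16:20724454-20734511) encodes thrombopoietin, the cytokine of platelet formation, and had 5.68, 5.52 and 5.47 CPM against 10.6, 9.66 and 11.1 CPM, a log2 change of 0.91 (SE 0.177, adjusted p 0.1203, edgeR). The WT libraries lay within a fraction of a CPM of each other.

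Chchd2 (chr5:129881161-129887470), a protein of the mitochondrial intermembrane space, had the largest log2 fold change of the 12: 1225, 1899 and 1353 CPM in WT and 4958, 3955 and 4781 CPM in p75NTRko-labelled libraries. It came to 1.61 (SE 0.35, adjusted p 0.166, edgeR), and the RefSeq table lists a processed copy, Chchd2-ps, so its count is uncertain. With the thalamic marker score, described below, as a term it was 0.49. That fit includes 5xFAD/p75NTRko-labelled replicate 1, with low Chchd2 (1148 CPM) and a thalamic score of 4.996, against 3.19 and 3.80 in its group. The part of that library in the change was not tested. Ackr3, a scavenging receptor for the chemokine CXCL12, had 13.4, 12.2 and 15.1 CPM against 30.4, 21.4 and 20.8 CPM. Arpc1b, a subunit of the Arp2/3 actin nucleator, had 37.4, 38.3 and 37.8 CPM against 54.1, 59.3 and 50.8 CPM. Sh3bp5, an exchange factor for Rab11, and Dnajb5, an Hsp40 co-chaperone, had log2 fold changes of 0.64 and 0.999. In Dnajb5 WT replicate 3 stood apart from its group, with 64.7, 63.3 and 141 CPM in WT against 196, 158 and 182 CPM. Ippk, the kinase that makes inositol hexakisphosphate, Rras2, a small GTPase of the Ras family, Mpeg1, a pore-forming protein of macrophages, and Fam163b differed by 0.82, 0.56, 0.92 and 0.46.

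**Figure D1:**
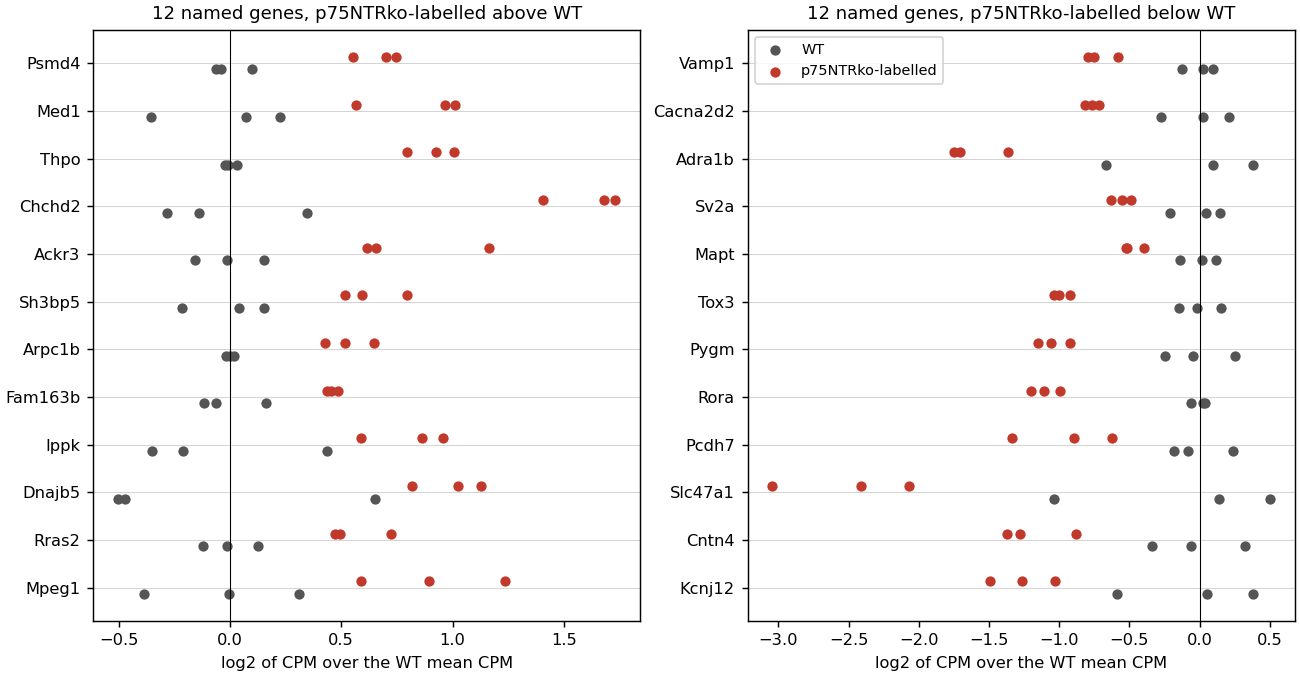
Each point is a library, placed by its log2 ratio of CPM to the WT mean CPM of that gene, for the 12 genes named above WT (left) and the 12 named below WT (right), with WT in grey and p75NTRko-labelled libraries in red. By the rule that chose them the groups of points do not overlap in any row; Chchd2 and Slc47a1 lie farthest from 0, and WT replicates spread widely in Dnajb5, Slc47a1 and Adra1b.

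Vamp1, Cacna2d2, Adra1b and Sv2a had the smallest p of the 12 genes named below WT. Vamp1 (chr6:125215581-125222306), the vesicle SNARE synaptobrevin-1, was at 131, 137 and 118 CPM in WT and 76.6, 85.99 and 74.2 CPM in p75NTRko-labelled libraries, a log2 change of -0.71 (SE 0.116, adjusted p 0.0822, edgeR). Sv2a (chr3:96181227-96195183), a glycoprotein of synaptic vesicles, was at 229, 245 and 192 CPM against 158, 143 and 152 CPM (-0.55, SE 0.102, adjusted p 0.117, edgeR). Both vesicle proteins thus lay below every WT library in every p75NTRko-labelled one. Cacna2d2, an auxiliary subunit of voltage-gated calcium channels, had 41.2, 57.8 and 50.9 CPM against 30.4, 29.4 and 28.4 CPM. Mapt (chr11:104229409-104332090), which encodes the microtubule-binding protein tau, was at 1741, 1456 and 1625 CPM against 1125, 1115 and 1222 CPM, a log2 change of -0.48 (SE 0.0903, adjusted p 0.1203, edgeR). Its fold change was the smallest of the 12.

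Adra1b (chr11:43774605-43901250), the alpha-1B adrenergic receptor, was at 74.1, 60.9 and 35.8 CPM in WT and 22.1, 17.5 and 16.9 CPM in p75NTRko-labelled libraries, with a log2 change of -1.60 (SE 0.292, adjusted p 0.117, edgeR). WT replicate 3 was the lowest of its group and still above all p75NTRko-labelled libraries. Rora (chr9:68653404-69388246), a nuclear receptor that acts in the circadian clock and is abundant in thalamus, had 189, 187 and 177 CPM against 92.3, 80.2 and 85.3 CPM. Slc47a1, an organic cation exporter, had 4.18, 9.41 and 12.1 CPM against 2.04, 1.61 and 1.04 CPM, the largest log2 fold change of the 24 genes at -2.46 (SE 0.501, adjusted p 0.145, edgeR). Pygm, a glycogen phosphorylase, Tox3, a high-mobility-group protein, and Kcnj12, an inward-rectifier potassium channel, differed by -1.03, -0.99 and -1.23 on the log2 scale. The adhesion molecules Pcdh7 and Cntn4 differed by -0.94 and -1.17.

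The same genes were then read in the 6 libraries with 5xFAD transgenes. Levels in these played no part in the requirement of no overlap, but they entered the scaling and the estimate of spread behind the p that ranked the genes. Among the 24 genes, Psmd4, Med1, Thpo and Mapt separated all 6 receptor-labelled libraries from all 6 others, that is 3 of 12 higher and 1 of 12 lower genes, as did 20 of the 1000 non-overlapping higher genes (2%) and 21 of the 1058 lower ones (1.98%); Ngfr did so too. Med1 was at 94.7, 110.2 and 101 CPM in 5xFAD and 164, 160.2 and 162 CPM in 5xFAD/p75NTRko-labelled libraries, and Mapt at 1644, 1588 and 1623 CPM against 1163, 1097 and 1261 CPM. In both genes the groups did not overlap here either. In 5xFAD/p75NTRko-labelled against 5xFAD libraries, the log2 fold change of Med1 was 0.67 (SE 0.1404, adjusted p 0.214, edgeR) and that of Mapt -0.46 (SE 0.0903, adjusted p 0.159, edgeR). Psmd4 was less far apart, at 287, 285 and 239.8 CPM against 321, 319 and 359 CPM. Chchd2 did not split by label: replicate 1 of 5xFAD/p75NTRko had the low level of the unlabelled libraries, with 1148, 4219 and 4773 CPM in that genotype and 1305, 1328 and 1193 CPM in 5xFAD. Over the 12 higher genes 7 kept their direction with transgenes, 3 of them at an unadjusted p under 0.05, and over the 12 lower genes 6 did, 3 of them at that p (edgeR). Of all autosomal genes, 49.4% of those higher and 44.0% of those lower kept theirs.

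**Figure D2:**
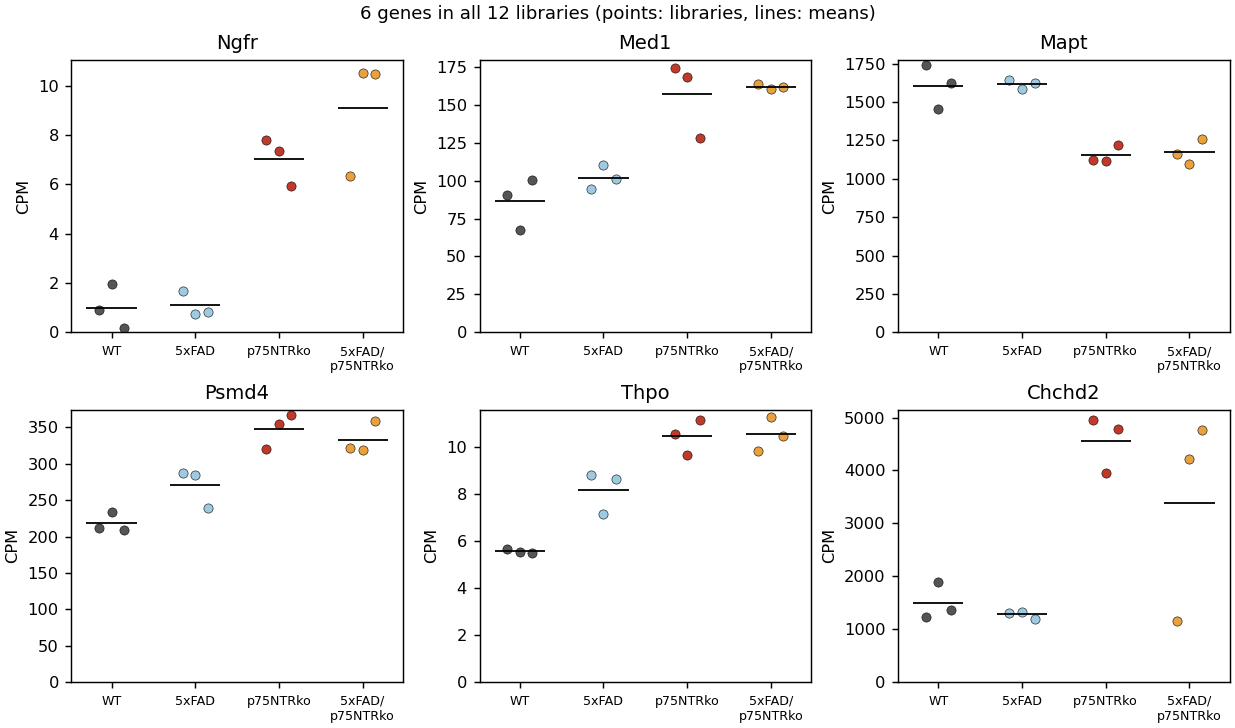
CPM of 6 genes in all 12 libraries, a point per library with the mean of each genotype as a line, on linear axes from 0. Ngfr, Med1, Psmd4 and Thpo are higher and Mapt is lower in all 6 receptor-labelled libraries than in all 6 others, while Chchd2 is low in 1 of the 5xFAD/p75NTRko-labelled libraries.

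Med1 and Mapt share chromosome 11 with Ngfr, at distances of 2.59 and 8.70 Mb on the GRCm38 RefSeq table. Within 10 Mb of Ngfr, 234 autosomal genes were tested besides it, of which 15 were higher (6.41%) and 25 lower (10.7%) at an unadjusted p under 0.05. Over the whole of chromosome 11 the shares were 4.41% and 7.09% of 1043 genes. The lower share was thus above both the chromosome's and the genome's 6.12%, and the higher share was close to 5.29%. Members of lists given below also lie within 10 Mb. They include Neurod2 at 2.75 Mb, Top2a at 3.43 Mb, and the clock genes Nr1d1 at 3.19 Mb and Hlf at -5.21 Mb. The part of this position in their differences was not tested.

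Of 31 neurotrophin signalling genes tested, 4 were higher and 2 lower at an unadjusted p under 0.05 (12.9% and 6.45%, against 5.29% and 6.12% of all genes), and their median log2 fold change was 0.045. Among the ligands, Bdnf, which supports synaptic plasticity through TrkB, was at 65.6, 57.3 and 96.6 CPM in WT and 91.2, 109.9 and 101 CPM in p75NTRko-labelled libraries, with WT replicate 3 inside the other group's range and a log2 change of 0.46 (SE 0.169, adjusted p 0.362, edgeR). Ntf3, the ligand of TrkC, overlapped likewise at 3.89, 4.54 and 8.13 CPM and 7.04, 8.28 and 7.88 CPM. Ntrk2 and Ntrk3, which encode the Trk receptors for these ligands, overlapped between the groups: Ntrk2 had 439, 418 and 404 CPM against 417, 379.8 and 371 CPM, and Ntrk3 185, 183 and 198 CPM against 177, 193 and 184 CPM. Sort1, the sortilin co-receptor for proneurotrophins, did so as well, at 339.8, 404 and 357 CPM and 404, 386 and 359 CPM. Its relatives Sorcs2 and Sorcs1 lay below WT in every library. Sorcs2 was at 29.1, 34.1 and 33.02 CPM against 27.8, 25.8 and 22.4 CPM (-0.34, SE 0.136, adjusted p 0.3804, edgeR), and Sorcs1 at 18.98, 11.8 and 13.6 CPM against 8.34, 10.3 and 8.77 CPM (-0.70, SE 0.2998, adjusted p 0.398, edgeR). The levels of Ntrk2, Ntrk3, Sort1 and Ntf3 are given for their roles. The count of higher members was 1 without WT replicate 2, 2 without WT replicate 1 or p75NTRko-labelled replicate 2, 7 without WT replicate 3, and 1 once Xist class was a term.

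Dentate granule cell markers were the list with the largest share of higher genes: 9 of 15 tested were higher at an unadjusted p under 0.05 (60%) and 1 was lower, with a median log2 fold change of 0.57. In bulk tissue, more cells of a type and more RNA per cell cannot be told apart. C1ql2, a synaptic organiser secreted by mossy fibres, was at 29.6, 44.5 and 68.7 CPM in WT and 70.4, 98.6 and 72.99 CPM in p75NTRko-labelled libraries (0.76, SE 0.239, adjusted p 0.328, edgeR). Sema5a, a semaphorin, was at 88.6, 127 and 171 CPM against 195, 187 and 207 CPM, and Stxbp6, a syntaxin-binding protein, at 119, 94.5 and 131 CPM against 142, 151 and 153 CPM. In C1ql2 and Sema5a WT replicate 1 was the lowest library and WT replicate 3 came close to the p75NTRko-labelled ones. Prox1, the transcription factor that defines granule cells, had 2.69, 4.71 and 5.14 CPM against 6.67, 8.28 and 6.84 CPM and a log2 change of 0.79 (SE 0.307, adjusted p 0.372, edgeR). Calb1, a calcium buffer of mature granule cells, lay on the other side, with 171, 191 and 166 CPM against 144, 146 and 158 CPM (-0.24, SE 0.0973, adjusted p 0.388, edgeR).

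The count of higher granule cell markers was 2 of 15 without WT replicate 1, 5 without WT replicate 2 and 12 without WT replicate 3. It was 5 without p75NTRko-labelled replicate 2 or 3, and 4 with Xist class as a term. Over all autosomal genes the higher share was 4.37%, 3.62% and 9.44% without WT replicates 1, 2 and 3. With Xist class as a term that share was 2.52%. The mean log2 CPM of the 15 markers was 4.42, 4.55 and 5.16 in WT and 5.198 to 5.212 in p75NTRko-labelled libraries. It was 4.98, 4.91 and 5.01 in 5xFAD libraries and 5.13, 4.89 and 4.44 in 5xFAD/p75NTRko-labelled ones. With transgenes the labelled libraries were thus not all above the unlabelled ones. Markers of CA1 to CA3 pyramidal cells numbered 6 higher and 0 lower of 18 (33.3%), with a median of 0.12 that was 0.41 without WT replicate 3. Their mean log2 CPM was 5.55 to 5.87 in WT and 5.91 to 5.96 in p75NTRko-labelled libraries. It was 5.90, 5.88 and 6.14 in 5xFAD libraries without the receptor label, each above every WT library. In 5xFAD/p75NTRko-labelled libraries it was 5.87, 5.98 and 5.69. Rgs14, a signalling scaffold typical of CA2, was at 121, 166 and 165 CPM against 223, 217 and 204 CPM (0.51), Spink8 at 26.6, 38.6 and 52.8 CPM against 66.4, 56.3 and 64.1 CPM (0.67), and Fibcd1 at 63.2, 109.7 and 97.2 CPM against 121, 123 and 130.2 CPM (0.47). All 3 were above WT without overlap. Their count was 2 without WT replicate 1, 3 without WT replicate 2 or p75NTRko-labelled replicate 3, and 2 once Xist class was a term.

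The series title puts adult neurogenesis at the centre of the study. Of 24 autosomal markers of neural progenitors and immature neurons, 8 were higher (33.3%) and 3 lower (12.5%) at an unadjusted p under 0.05, with a median of 0.16. The higher members included the proneural and differentiation factors Neurod2, Neurod6, Neurod1 and Bhlhe22, which mature glutamatergic neurons of the hippocampus also express. Neurod2 was at 299, 287 and 405 CPM in WT and 526, 491 and 520.3 CPM in p75NTRko-labelled libraries (0.63, SE 0.162, adjusted p 0.238, edgeR), and Neurod6 at 289, 308 and 399 CPM against 459, 525 and 551 CPM (0.62, SE 0.168, adjusted p 0.258, edgeR). Fabp7, a fatty acid carrier of radial glia-like progenitors and astrocytes, was at 56.3, 38.9 and 69.2 CPM against 75.3, 112 and 95.9 CPM (0.78, SE 0.196, adjusted p 0.238, edgeR). Each of these was above WT in all 3 libraries. Neurod2 lies 2.75 Mb from Ngfr, and the part of that position in its difference was not tested. The 3 lower members were general neuronal genes with overlapping libraries: the tubulin Tubb3 had 727, 864 and 502 CPM against 532, 519 and 518 CPM, the RNA-binding protein Elavl4 286, 275 and 189.8 CPM against 174, 204 and 182 CPM, and the microtubule regulator Stmn1 689, 683 and 387 CPM against 381, 400.1 and 385 CPM. In all 3, WT replicate 3 sat at the level of the p75NTRko-labelled libraries. These 3 genes were named after their values were seen. The count of higher members was 6 to 9 when each of the 6 libraries was left out in turn, and 2 once Xist class was a term. That of lower members was 0 without WT replicate 2, and 1 without p75NTRko-labelled replicate 1 or 3 or once Xist class was a term.

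Genes of cell division were sparse. Of 24 tested, 4 were higher and 0 lower (16.7%), with a median of 0.13. Top2a, the topoisomerase of mitotic chromosomes, was at 1.79, 3.25 and 3.98 CPM in WT and 8.897, 5.29 and 7.14 CPM in p75NTRko-labelled libraries (1.25, SE 0.3399, adjusted p 0.258, edgeR), and Cenpf, a kinetochore protein, at 2.24, 2.43 and 2.99 CPM against 7.04, 5.06 and 5.35 CPM (1.19, SE 0.307, adjusted p 0.242, edgeR). The replication helicase subunits Mcm6 and Mcm4 had 5.98, 10.7 and 15.4 CPM against 18.9, 17.01 and 20.7 CPM and 12.3, 8.11 and 17.8 CPM against 20.2, 23.7 and 18.1 CPM. All 4 genes lay above every WT library. Top2a lies 3.43 Mb from Ngfr, and the part of that position in its difference was not tested. The count stayed at 4 or 5 when any library was left out and at 4 with Xist class as a term, and was 1 with the thalamic marker score as a term. Markers below the filter gave no direction: Mki67, the common proliferation marker, had 5, 5 and 7 counts in WT and 7, 7 and 5 in p75NTRko-labelled libraries, and Eomes, of intermediate progenitors, 3, 3 and 16 and 5, 3 and 12.

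**Figure D3:**
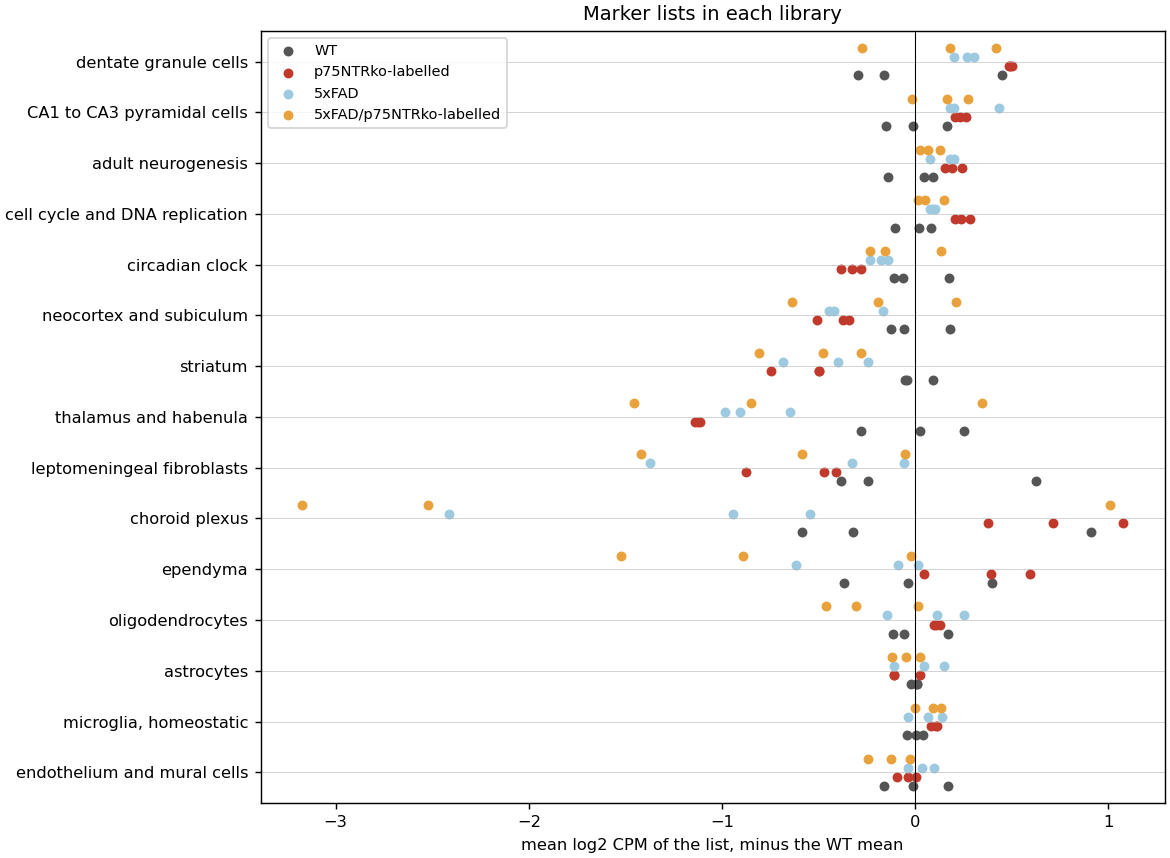
Mean log2 CPM of the tested members of 15 marker lists in each library, minus the WT mean of the list, for WT (grey), p75NTRko-labelled (red), 5xFAD (blue) and 5xFAD/p75NTRko-labelled libraries (orange). The thalamic and striatal scores of the p75NTRko-labelled libraries lie below all WT libraries and the granule cell score above, while choroid plexus spans more than 4 log2 units among the 12 libraries.

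Genes of tissue that borders the hippocampus differed between WT and p75NTRko-labelled libraries. The thalamic, striatal and neocortical lists also had a lower mean log2 CPM in every 5xFAD library without the receptor label than in every WT library. Markers of thalamus and habenula were lower in 13 of 21 (61.9%) and higher in 0, with a median of -0.95. Their mean log2 CPM was 4.37 to 4.90 in WT and 3.51 to 3.53 in p75NTRko-labelled libraries, and their summed level 857 to 1145 CPM against 541 to 547 CPM. That mean was 3.74, 4.003 and 3.67 in 5xFAD libraries and 4.996, 3.19 and 3.80 in 5xFAD/p75NTRko-labelled ones. Tcf7l2, a transcription factor that marks thalamic neurons, was at 33.9, 49.98 and 67.03 CPM in WT and 15.9, 19.8 and 17.4 CPM in p75NTRko-labelled libraries (-1.51, SE 0.526, adjusted p 0.344, edgeR), and the kinase Prkcd at 139, 296 and 261 CPM against 119.6, 86.9 and 112 CPM (-1.13, SE 0.448, adjusted p 0.3804, edgeR). Shox2, a homeobox gene of thalamic neurons, was at or under 3 counts in each p75NTRko-labelled library and at 8.07, 14.9 and 23.2 CPM in WT, at least 27.3-fold lower when computed against 3 counts per library. Ramp3, a receptor activity-modifying protein, was at 57.2, 62.6 and 46.6 CPM against 16.5, 19.1 and 12.8 CPM and Tnnt1, a troponin, at 6.43, 14.6 and 11.6 CPM against 1.11, 0.6898 and 1.49 CPM. All 5 were lower in every p75NTRko-labelled library. The count was 10 to 14 when each library was left out in turn, and 8 once Xist class was a term. Habenular Pou4f1 and Gpr151 stayed below the expression filter. Pou4f1 had 1, 2 and 24 counts in WT and 5, 4 and 5 in p75NTRko-labelled libraries, so that WT replicate 3 stood apart. Gpr151 had 2, 2 and 1 against 3, 0 and 1.

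Striatal markers were lower in 5 of 15 (33.3%) and higher in 0, with a median of -0.56. Their mean log2 CPM was 3.70 to 3.85 in WT and 3.01 to 3.25 in p75NTRko-labelled libraries. It was 3.51, 3.35 and 3.07 in 5xFAD libraries and 3.28, 2.95 and 3.47 in 5xFAD/p75NTRko-labelled ones. Penk, the enkephalin precursor, was at 123, 110.03 and 61.4 CPM against 47.8, 56.1 and 54.1 CPM (-0.90, SE 0.202, adjusted p 0.171, edgeR), and Rgs9, a regulator of dopamine receptor signalling, at 8.37, 8.44 and 9.29 CPM against 5.19, 4.83 and 5.05 CPM. The count was 2 once Xist class was a term. Drd2, a dopamine receptor of one class of striatal projection neurons, was listed at 0 in all 6 libraries, as were some genes that every cell uses, so that its 0 says nothing about these cells. Neocortical and subicular markers were lower in 6 of 18 (33.3%, against 6.12% of all genes) and higher in 3 (16.7%, against 5.29%), with a median of -0.40. Their mean log2 CPM was 4.67 to 4.98 in WT and 4.29 to 4.46 in p75NTRko-labelled libraries. It was 4.38, 4.63 and 4.35 in 5xFAD libraries and 4.61, 4.16 and 5.01 in 5xFAD/p75NTRko-labelled ones. Foxp2, a transcription factor of deep-layer cortex and of thalamus, was at 24.5, 11.2 and 21.6 CPM against 5.005, 5.52 and 2.82 CPM (-2.14, SE 0.502, adjusted p 0.202, edgeR), Fn1, fibronectin, at 105, 122 and 144 CPM against 82.5, 84.2 and 73.3 CPM (-0.63), and Otof, otoferlin, at 8.97, 9.25 and 5.31 CPM against 1.298, 2.07 and 2.97 CPM (-1.85). All 3 lay below every WT library. Levels of the 3 higher members are not given here, so these genes show only the lower side of a list that went both ways. The median of this list was -0.096 without WT replicate 1. Markers of leptomeningeal fibroblasts were lower in 3 of 15 (20%) and higher in 0, with a median of -0.69; WT replicate 3 was their highest library, as in Slc22a6, an organic anion transporter, with 7.17, 5.52 and 14.3 CPM against 3.52, 2.76 and 1.49 CPM. That count was 5 without WT replicate 1 or 2, and 1 without p75NTRko-labelled replicate 3 or once Xist class was a term. The median was -0.25 without WT replicate 3, and 0.30 with the thalamic score as a term, where 3 were higher and 0 lower.

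Choroid plexus, the ventricular tissue that makes cerebrospinal fluid, lay on the other side of WT. All 19 of its markers had fold changes above 0, with a median of 0.58, and 0 of 19 reached an unadjusted p under 0.05, with WT replicate 3 at the level of the p75NTRko-labelled libraries. Kl, the klotho gene, was at 12.3, 8.44 and 45.1 CPM in WT and 56.3, 26.2 and 42.7 CPM in p75NTRko-labelled libraries (0.94, SE 0.671, adjusted p 0.609, edgeR), and the summed level of the list was 2468 to 6114 CPM against 4542 to 7441 CPM. Ependymal Foxj1 behaved likewise, with 20.2, 7.303 and 35.01 CPM against 41.5, 21.2 and 38.8 CPM. Of the choroid markers, 4 reached that p without the transgenic libraries in the fit 3 without WT replicate 3, and all 19 with the thalamic score as a term. The median was 0.33 without WT replicate 1 and 1.23 without WT replicate 3.

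The hippocampal lists were read again beside the thalamic difference. With the thalamic score as a term in the fit, the higher granule cell markers were 10 of 15, the higher neurogenesis markers 5 of 24, the higher CA markers 1 of 18 and the higher cell division genes 1 of 24. The same term was fitted for the other lists and the named genes, and is given elsewhere for some of them. Such a fit cannot tell bordering tissue from the label, since the score itself differed between the groups. The part of bordering tissue in the gene differences was therefore not tested.

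Circadian clock genes were the list with the largest share of lower genes. The clock is a loop in which Clock, Npas2 and Arntl switch on Per, Cry and Nr1d genes, whose products switch it off, and its messages rise and fall over the day. The labels used here give no hour of collection. Of 22 genes tested, 14 were lower (63.6%) and 1 higher (4.55%) at an unadjusted p under 0.05, with a median of -0.36. The mean log2 CPM of the list was 6.01 to 6.29 in WT and 5.73 to 5.84 in p75NTRko-labelled libraries. It was 5.88, 5.98 and 5.94 in 5xFAD libraries without the receptor label, each below every WT library. In 5xFAD/p75NTRko-labelled libraries it was 5.96, 5.88 and 6.25. The activator Arntl was the higher member, at 31.4, 15.9 and 36.5 CPM in WT and 37.1, 36.8 and 42.96 CPM in p75NTRko-labelled libraries (0.48, SE 0.217, adjusted p 0.422, edgeR), while its partner Clock was level at 129.7, 111 and 125 CPM and 125, 126 and 122 CPM. Some repressors lay on the other side, while Per1 and Per3 were not among the 14 lower genes. The activator Npas2 was among those 14, without overlap. Cry1 was at 24.8, 21.6 and 20.6 CPM against 14.1, 12.4 and 13.5 CPM (-0.74, SE 0.189, adjusted p 0.238, edgeR), and Per2 at 43.03, 38.9 and 42.6 CPM against 30.6, 20.7 and 31.5 CPM (-0.58, SE 0.173, adjusted p 0.2996, edgeR). Ciart, a repressor of Clock and Arntl activity, was at 23.5, 18.5 and 13.6 CPM against 5.93, 8.97 and 13.8 CPM (-0.93, SE 0.313, adjusted p 0.342, edgeR), where p75NTRko-labelled replicate 3 just overlapped WT replicate 3.

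The output factors with a PAR bZIP domain, which pass the rhythm on to other genes, lay lower too. Dbp was at 58.3, 43.2 and 53.8 CPM against 29.8, 25.98 and 38.8 CPM (-0.70, SE 0.1903, adjusted p 0.258, edgeR) and Hlf at 479, 386 and 306 CPM against 276, 269 and 261 CPM (-0.54, SE 0.1798, adjusted p 0.337, edgeR). The nuclear receptor Nr1d2 was at 297, 289 and 253 CPM against 232, 212 and 219 CPM (-0.34), and Rorb at 44.1, 30.02 and 42.5 CPM against 21.5, 27.6 and 26.5 CPM (-0.63). Dbp, Hlf, Nr1d2 and Rorb each lay below all WT libraries. Hlf lies within 10 Mb of Ngfr, as given above. Rora and Rorb are also in the thalamic and neocortical lists, and 12 of the 14 lower genes are in neither. Arntl, Ciart, Per2, Hlf and Nr1d2 were named for their roles after the values were seen. The count of lower genes was 5 without WT replicate 1, 9 without p75NTRko-labelled replicate 3, 10 without WT replicate 2, 15 without WT replicate 3, 7 with Xist class as a term and 11 with the thalamic score as a term. WT replicate 1 was thus the library on which the count rested most.

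**Figure D4:**
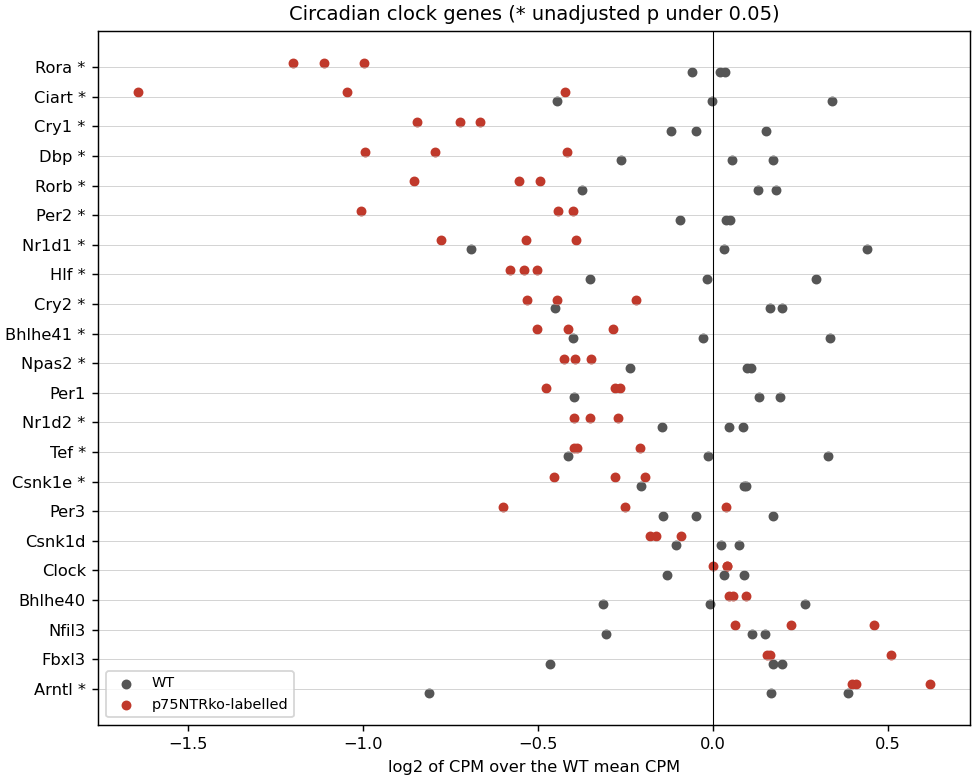
Each point is a library, placed by its log2 ratio of CPM to the WT mean CPM, for the 22 clock genes tested, ordered by fold change, with WT in grey, p75NTRko-labelled libraries in red and an asterisk at an unadjusted p under 0.05 in edgeR. Red points lie left of 0 for the 14 lower genes, clear of the grey points in Rora, Cry1, Dbp, Rorb, Per2, Hlf, Nr1d2 and Npas2, and Arntl is the gene with an asterisk on the right.

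Clock and Arntl bind E-boxes, so promoter sequences of this list were read from RefSeq windows of 300 bases (250 before and 50 from the transcription start, GRCm38.p6). Windows were found for 18 of the 22 genes. The letters CACGTG, which read the same on both strands, were present in 5 of 18 genes, 4 of them among the 13 lower genes with a window, against 11.7% of 9603 tested genes and 7.14% of all 31396 windows. The D-box letters TTATGTAA, TTACATAA or TTACGTAA, which bind the PAR bZIP factors, were in 1 of 18 (0.906% of tested genes), and AGGTCA on either strand, the core of the sites of Rora and Nr1d1, in 5 of 18 (14.3%). Among the 13 lower genes with a window, 0 held the D-box letters and 1 held AGGTCA on either strand. Such a match is a description of the letters in a window. The windows of 3 genes with the E-box and a lower level are shown to let the number and place of the motif be compared, all on the minus strand, with the motif in capitals. Ciart (chr3:95882179-95882478) holds it 3 times, and Cry1 (chr10:85185005-85185304) and Bhlhe41 (chr6:145865371-145865670) once each; Bhlhe41, a repressor that itself binds E-boxes, was at 104, 62.5 and 80.8 CPM against 61.9, 58.2 and 67.6 CPM.
Ciart: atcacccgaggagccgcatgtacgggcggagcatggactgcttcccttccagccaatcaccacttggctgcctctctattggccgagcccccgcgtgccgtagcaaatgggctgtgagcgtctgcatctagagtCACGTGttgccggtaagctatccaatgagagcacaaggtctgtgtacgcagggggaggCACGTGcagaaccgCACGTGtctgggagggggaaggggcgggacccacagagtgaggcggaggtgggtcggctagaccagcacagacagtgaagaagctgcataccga
Cry1: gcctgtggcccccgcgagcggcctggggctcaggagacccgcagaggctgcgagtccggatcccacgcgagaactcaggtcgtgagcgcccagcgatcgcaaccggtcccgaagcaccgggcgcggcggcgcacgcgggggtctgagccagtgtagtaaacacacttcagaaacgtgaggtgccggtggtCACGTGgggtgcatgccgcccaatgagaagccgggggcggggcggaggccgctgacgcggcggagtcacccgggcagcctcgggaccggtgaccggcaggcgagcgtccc
Bhlhe41: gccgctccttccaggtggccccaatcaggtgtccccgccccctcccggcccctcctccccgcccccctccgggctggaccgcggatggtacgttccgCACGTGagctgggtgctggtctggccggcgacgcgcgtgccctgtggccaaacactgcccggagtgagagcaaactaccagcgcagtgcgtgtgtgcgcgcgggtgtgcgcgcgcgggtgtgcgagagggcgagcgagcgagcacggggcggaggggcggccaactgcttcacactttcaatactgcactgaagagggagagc

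Genes of transmitter release and excitability leaned lower. Of 38 presynaptic genes, 9 were lower (23.7%) and 2 higher (5.26%), with a median of -0.11. After Vamp1 and Sv2a, already described, Unc13c, a vesicle-priming protein, was at 79.8, 90.6 and 67.5 CPM in WT and 31.3, 33.3 and 35.1 CPM in p75NTRko-labelled libraries (-1.25, SE 0.275, adjusted p 0.169, edgeR), and Rims2, an active-zone scaffold, at 69.8, 77.9 and 66.2 CPM against 53.9, 49.9 and 59.8 CPM (-0.38). Both were lower in all 3 libraries. The count was 4 without p75NTRko-labelled replicate 1 and 5 once Xist class was a term.

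Of 53 potassium channel genes, 13 were lower (24.5%) and 3 higher (5.66%), with a median of -0.19. Kcnj9, a channel gated by G proteins, was at 13.6, 15.3 and 9.95 CPM against 6.302, 3.91 and 6.84 CPM (-1.16, SE 0.247, adjusted p 0.1602, edgeR). Kcnj10, the astrocytic channel that buffers potassium, was at 74.7, 70.4 and 67.4 CPM against 50.4, 48.7 and 48.3 CPM (-0.53, SE 0.128, adjusted p 0.221, edgeR). Kcnt1, activated by sodium, and Kcnc2, of fast-spiking cells, had log2 fold changes of -0.84 and -0.29. The 4 genes lay below every WT library. Their list's count was 7 without WT replicate 1, 8 without p75NTRko-labelled replicate 1, 6 without p75NTRko-labelled replicate 3 and 4 once Xist class was a term. Sodium and calcium channels had 2 of 26 in each direction (7.69%), Cacna2d2 among the lower and its relative Cacna2d3 among the higher (0.32). Their lower count was 6 without WT replicate 3, 4 without WT replicate 2, and 1 without any single p75NTRko-labelled replicate or once Xist class was a term, and their higher count 1 without any single library but WT replicate 3 and 0 once Xist class was a term.

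Of 14 cholinergic and adrenergic genes, 4 were lower (28.6%) and 1 higher (7.14%), with a median of -0.27. After Adra1b, Adrb1, the beta-1 receptor, was at 60.8, 49.7 and 42.5 CPM in WT and 34.1, 32.9 and 34.9 CPM in p75NTRko-labelled libraries (-0.59, SE 0.175, adjusted p 0.304, edgeR), Adra2a, the alpha-2A receptor, at 24.95, 32.6 and 19.1 CPM against 15.9, 18.4 and 11.9 CPM (-0.75), and Chrna4, a nicotinic subunit, at 26, 37.2 and 24.9 CPM against 14.3, 13.6 and 19.8 CPM (-0.87). All 4 lay below WT in every library. Of 29 glutamate receptor genes, 5 were lower (17.2%) and 2 higher (6.90%), with the metabotropic Grm4 at 28.8, 32.1 and 25.7 CPM against 14.3, 13.1 and 12.04 CPM (-1.14) and the AMPA receptor subunit Gria4 at 41.5, 33.9 and 28.2 CPM against 23.2, 21.2 and 24.98 CPM (-0.58). Grm4, Gria4 and Chrna4 are known to be abundant in thalamus, whose markers were lower in the same libraries. Of 15 GABA receptor genes, 3 were higher (20%) and 1 lower (6.67%), among them Gabra5, the alpha-5 subunit of hippocampal pyramidal cells, at 64.6, 91.04 and 103 CPM against 113, 125 and 135 CPM (0.53), and Gabrd, of extrasynaptic receptors, at 24.1, 17.04 and 12.6 CPM against 8.897, 12.6 and 12.6 CPM (-0.66). The glutamate count was 3 without WT replicate 1, WT replicate 2 or p75NTRko-labelled replicate 1, and the GABA count 1 without WT replicate 1, WT replicate 2 or p75NTRko-labelled replicate 3, and 0 once Xist class was a term.

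Of 29 markers of GABAergic interneurons, 7 were lower (24.1%) and 1 higher (3.45%), with a median of -0.13. Slc32a1, the vesicular GABA transporter shared by all these cells, was at 270.3, 282 and 285 CPM in WT and 219, 214 and 206 CPM in p75NTRko-labelled libraries, a narrow but complete separation (-0.39, SE 0.0872, adjusted p 0.171, edgeR). Gad1, which makes GABA, was at 357, 237 and 401 CPM against 326, 305 and 322 CPM. Penk and Tac1, peptides of these cells, are in the striatal list as well. The count was 4 without p75NTRko-labelled replicate 3. Immediate early genes, which report recent neuronal activity, were higher in 3 of 34 (8.82%) and lower in 0, with a median of 0.0080: Jun was at 106, 125 and 142 CPM against 146, 172 and 169 CPM and Nr4a3 at 44.1, 73.2 and 66.2 CPM against 76, 86.7 and 94.7 CPM. The count was 5 without WT replicate 3 and 0 with Xist class as a term.

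**Figure D5:**
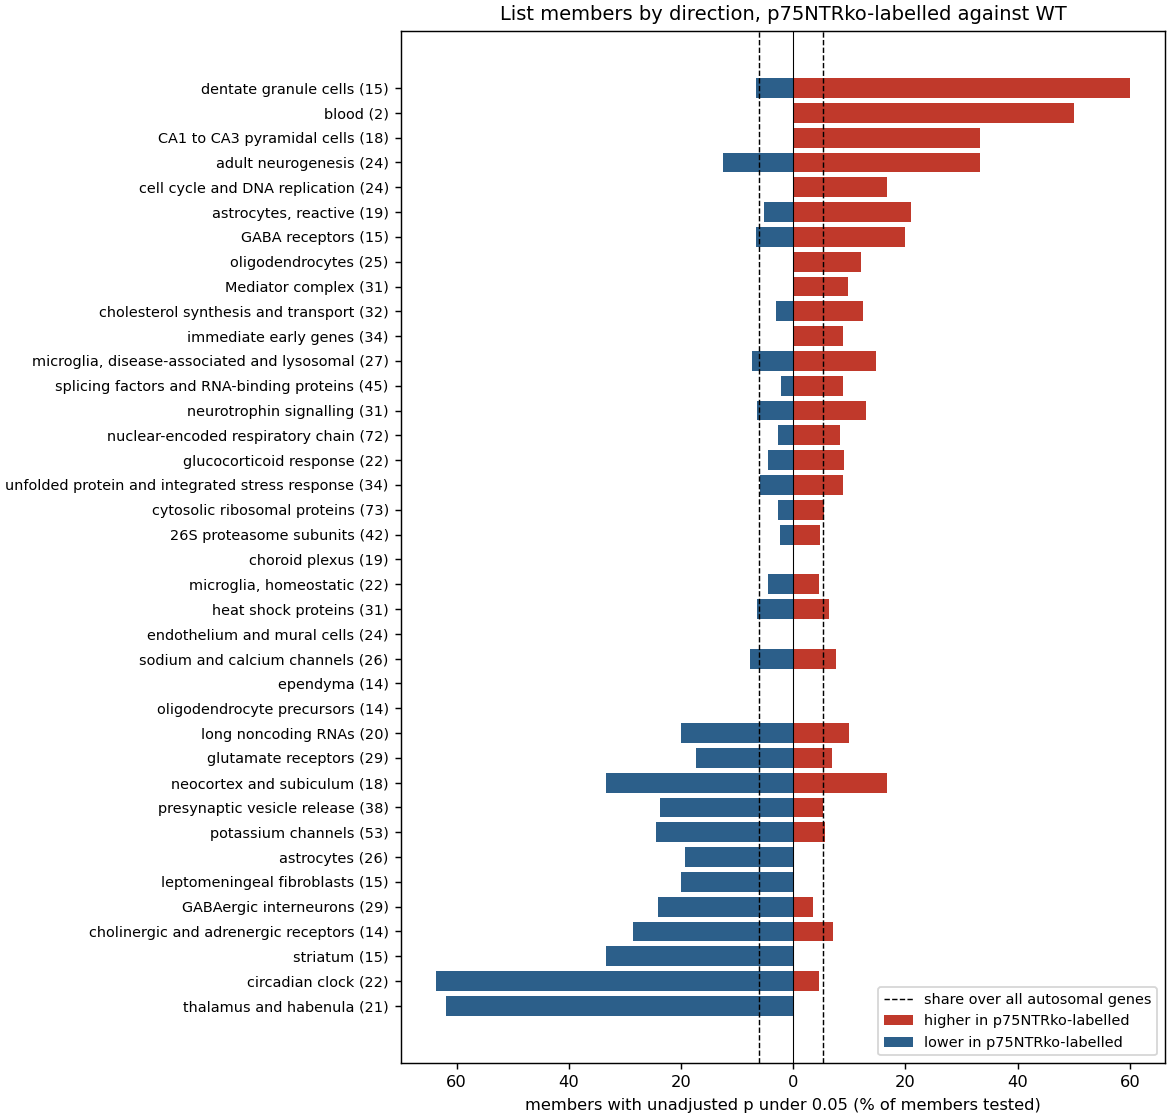
Share of tested members with an unadjusted p under 0.05 in edgeR, higher (red, right) and lower (blue, left) in p75NTRko-labelled libraries, for 38 lists with the number tested in brackets; dashed lines mark the shares over all autosomal genes, 5.29% and 6.12%. Granule cell markers reach 60% on the right, clock and thalamic genes 63.6% and 61.9% on the left, and the proteasome and ribosomal lists lie near the dashed lines.

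Glial and vascular lists held 0 to 5 genes in a direction. Astrocyte markers were lower in 5 of 26 (19.2%) and higher in 0, with a median of -0.08: Aldoc, a glycolytic enzyme, was at 1638, 1845 and 1371 CPM in WT and 1349.97, 1278 and 1275 CPM in p75NTRko-labelled libraries (-0.31), and Ndrg2 at 1053, 1235 and 963 CPM against 917, 819 and 809.9 CPM (-0.35). These were small separations in abundant genes, and Aqp4, the astrocytic water channel, overlapped at 157, 177 and 178 CPM and 124, 149 and 172 CPM. The count was 3 without WT replicate 2 and 2 with Xist class as a term, and the median was 0.06 with Xist class as a term. Reactive astrocyte genes were higher in 4 of 19 (21.1%) and lower in 1, Sphk1, sphingosine kinase, at 5.83, 5.52 and 6.64 CPM against 0.927, 1.84 and 1.04 CPM (-2.26, SE 0.462, adjusted p 0.145, edgeR). Fkbp5, a glucocorticoid-induced chaperone, was among the higher at 46.3, 36.03 and 46.1 CPM against 93.98, 46.4 and 55.5 CPM, with replicate 1 well above the other labelled libraries. The higher count was 2 without WT replicate 1 and 1 without WT replicate 2 or p75NTRko-labelled replicate 1.

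Oligodendrocyte markers were higher in 3 of 25 (12%) and lower in 0, with a median of 0.10. Opalin, a myelin membrane protein, was at 14.3, 12.3 and 19.4 CPM in WT and 15.9, 40.2 and 36.3 CPM in p75NTRko-labelled libraries, where replicate 1 stayed at the WT level (1.001, SE 0.284, adjusted p 0.264, edgeR). Mog, of the outer myelin sheath, was at 25.3, 21.9 and 32.7 CPM against 39.1, 44.1 and 41.2 CPM without overlap (0.64). The count was 6 without WT replicate 3 and 0 once Xist class was a term. Oligodendrocyte precursors had 0 of 14 in either direction, and at most 1 in each when any library was left out. Homeostatic microglial genes had 1 of 22 in each direction (4.55%), with Olfml3 at 2.69, 1.62 and 2.65 CPM against 5.19, 5.52 and 4.91 CPM (1.15, SE 0.273, adjusted p 0.212, edgeR) and C1qa, of the complement system, at 104, 86.7 and 71.8 CPM against 65.6, 68.3 and 65.1 CPM (-0.40); the lower count was 0 without any single library but WT replicate 3. In disease-associated microglial and lysosomal genes 4 of 27 were higher (14.8%) and 2 lower (7.41%). Of these, Lpl, lipoprotein lipase, was at 103, 139 and 152 CPM against 169, 196 and 212 CPM, and Spp1, osteopontin, at 34.2, 38.9 and 52.4 CPM against 24.5, 15.9 and 11.4 CPM, where leptomeningeal cells are another known source. That higher count was 2 without WT replicate 1, p75NTRko-labelled replicate 2 or p75NTRko-labelled replicate 3, 1 without WT replicate 2, and 0 once Xist class was a term. Endothelial and mural markers had 0 of 24 in either direction, with Cldn5, of tight junctions, at 5.53, 3.57 and 5.97 CPM against 5.005, 8.97 and 5.798 CPM, and 6 were lower without p75NTRko-labelled replicate 1, 2 without WT replicate 2, and 1 without WT replicate 1 or p75NTRko-labelled replicate 2; 1 was higher without WT replicate 1 or 3 or once Xist class was a term.

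Few other genes of the complexes that hold Psmd4 and Med1 reached this p. Of 42 proteasome subunits, 2 were higher (4.76%) and 1 lower (2.38%), with a median of 0.044 and Psma4, of the core particle, next to Psmd4 at 43.5, 46.1 and 56.7 CPM in WT and 60.2, 60.7 and 61.5 CPM in p75NTRko-labelled libraries. The higher count was 1 without WT replicate 2 or p75NTRko-labelled replicate 1 or 3, and 6 without WT replicate 3. Of 31 Mediator genes, 3 were higher (9.68%) and 0 lower, with a median of 0.015, the others being Cdk8, the Mediator kinase (0.52), and Med17, of the head module (0.26). That count was 6 without WT replicate 3. Cytosolic ribosomal proteins had 4 of 73 higher (5.48%) and 2 lower (2.74%), with Rps12 at 99.4, 94.6 and 89.4 CPM against 41.5, 39.8 and 88.3 CPM. Ribosomal protein genes have processed copies, so this count is uncertain. In Rps12, p75NTRko-labelled replicate 3 stayed at the WT level. Nuclear-encoded respiratory chain genes had 6 of 72 higher (8.33%) and 2 lower (2.78%), led by Cox7c at 373, 223 and 383 CPM against 514, 395 and 553 CPM (0.58). The ribosomal count was 11 and the respiratory count 10 without WT replicate 3, and the ribosomal count was 1 without p75NTRko-labelled replicate 2. Once Xist class was a term they were 2 and 3.

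Among 32 cholesterol genes, 4 were higher (12.5%) and 1 lower (3.12%), with a median of 0.10. The higher included the biosynthetic enzyme Msmo1, at 111, 124 and 119.6 CPM in WT and 138, 158 and 142 CPM in p75NTRko-labelled libraries (0.30). The lower was Cyp46a1, the neuronal hydroxylase that clears cholesterol from the brain, at 54.1, 51.9 and 36.8 CPM against 28.5, 34.03 and 30.6 CPM (-0.62, SE 0.218, adjusted p 0.344, edgeR). Msmo1 and Cyp46a1 thus lay on opposite sides of WT, each without overlap. The higher count was 7 without WT replicate 3, 2 without p75NTRko-labelled replicate 1 or 3, and 0 without p75NTRko-labelled replicate 2 or with Xist class as a term.

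Whether the difference between labelled and unlabelled libraries itself changed with the transgenes was tested as an interaction. By edgeR, 1 autosomal gene of 12560 passed an adjusted p of 0.05 (0.00796%), and DESeq2 gave 21. The gene was Adra1b. Without transgenes it was lower in the receptor-labelled libraries, as given above, whereas with them it was at 14.4, 19.5 and 13.3 CPM in 5xFAD and 39.1, 19.3 and 44.4 CPM in 5xFAD/p75NTRko-labelled libraries, where replicate 2 lay within the 5xFAD range. The interaction was 2.73 on the log2 scale (SE 0.4199, adjusted p 0.0307, edgeR). The thalamic list's mean log2 CPM was 3.74, 4.003 and 3.67 in 5xFAD and 4.996, 3.19 and 3.80 in 5xFAD/p75NTRko-labelled libraries, and its part in this result was not tested. The count was 0 without WT replicate 1 or 2, without any single p75NTRko-labelled replicate, and when X and Y genes were dropped.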

How the data were processed

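Hippocampal RNA was profiled by QuantSeq 3′ mRNA sequencing, from RNA with an integrity number above 7 per the labels' protocols. The deposited table holds raw counts per gene symbol. FastQC, HISAT2, SAMtools, HTSeq and edgeR and the build mm10 are named in the submitters' processing notes, without versions; strand use is not given in the sources used here. Summary lines were left out, and columns of other samples numbered 0.

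In R 4.3.3, edgeR 4.0.16 fitted 1 mean for each genotype to all 12 libraries by quasi-likelihood (filterByExpr, TMM scaling, 8 residual degrees of freedom), adjusting by Benjamini-Hochberg over 13065 genes. Of these, 470 lay on X, 4 on Y and 31 had no position in the GRCm38.p6 RefSeq table. The common biological coefficient of variation was 13.8%. DESeq2 1.42.0 was an alternative. An exact permutation test of 3 against 3 cannot go below 0.1.

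The rule named Ngfr; 12 higher and 12 lower genes without overlap, with a mean of at least 5 CPM and the smallest p; up to 4 members a list by p; DESeq2 calls; and defining markers as levels. Members and all 38 lists were chosen with earlier results of these data known. Alternatives were RLE scaling, DESeq2, no filter, a mean of 50 counts, the 6 libraries alone, a replicate block, Xist class, marker scores as terms, no X and Y, and each library left out. Applying them to counts within lists was chosen after seeing the data. The procedure was tested on simulated data. Some members that the rule names are not reported here.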

Additional observations from a re-analysis of the deposited data

Results flagged for a closer look

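Adra1b differed between the settings without and with transgenes in a test of that difference itself, with a log2 interaction of 2.73 (SE 0.4199, adjusted p 0.0307, edgeR). Its log2 fold change was -1.60 without transgenes, where 3 of 3 receptor-labelled libraries lay below WT, and 1.13 (SE 0.302, adjusted p 0.475, edgeR) with them.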

How the results depend on the processing

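The count of 0 autosomal genes past the threshold became 49 with DESeq2, 41 without a filter on low counts, 18 with only the WT and p75NTRko-labelled libraries, 29 with the thalamic score and 24 with the choroid score as a term, and 1 with Xist class as a term or with the single p75NTRko-labelled library of the WT Xist class. That gene was Wdfy1, named after its values were seen. The count ran from 0 to 25 when each library was left out, 25 being without WT replicate 3. The 29 genes with the thalamic score were all higher, with 0 among the DESeq2 calls and 0 among the 24 named genes. Choroid plexus markers such as Calml4, Tmem72, Slc4a5 and Ttr were among the 10 with the smallest p. With the choroid score 4 were higher and 20 lower, and the first 10 included the thalamic markers Shox2, Tcf7l2, Rora and Tnnt1. Counts at an unadjusted p under 0.05 became 316 higher and 440 lower with Xist class as a term, and 280 and 401 within the WT Xist class. Leaving out each library gave 431 to 1200 higher and 503 to 1183 lower, the low ends without p75NTRko-labelled replicate 3 and the high ends without WT replicate 3. The interaction count of 1 became 21 with DESeq2, 9 without a filter, 7 and 11 with the thalamic and choroid scores as terms, and 0 with a mean of at least 50 counts, with a replicate block or without X and Y; leaving out each library gave 0 to 2. The cause was not tested.

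With the thalamic score as a term, the log2 fold changes of Tcf7l2 and Prkcd, both members of that score, were 0.34 and 0.20. Those were the only 2 directions among 112 named genes that turned. Replicate numbers do not pair the samples by any label, and same-numbered libraries deviated together with correlations of -0.076, 0.104 and 0.073, so that only WT replicate 2 correlated best with its own number. With the replicate block 0 genes passed, with 593 higher and 678 lower at an unadjusted p under 0.05. Genes with few counts, such as Ngfr in WT, are limited by depth.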

Other observations

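Some of the genes that DESeq2 called in this comparison belong to no list above. Cdh1, which encodes E-cadherin, was at 8.37, 13.6 and 18.7 CPM in WT and 3.71, 2.99 and 1.19 CPM in p75NTRko-labelled libraries. Rbm28, a nucleolar RNA-binding protein, was at 65.4, 87.96 and 79.97 CPM against 125, 140.5 and 117 CPM, and with transgenes at 62.1, 73.2 and 69.8 CPM in 5xFAD and 68.9, 68.03 and 116 CPM in 5xFAD/p75NTRko-labelled libraries. Each separated the 6 libraries without transgenes, and Rbm28 overlapped between the 6 with them.

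Imprinted and other long noncoding RNAs were lower in 4 of 20 (20%) and higher in 2 (10%). Meg3, an abundant imprinted RNA of neurons, was at 7813, 8939 and 7800.1 CPM in WT and 7196, 6994 and 6333 CPM in p75NTRko-labelled libraries, and Snhg8, a host of small nucleolar RNAs, at 206, 117 and 245 CPM against 254, 275 and 285 CPM. The lower count was 2 without WT replicate 1, WT replicate 2 or p75NTRko-labelled replicate 3, and 0 once Xist class was a term. Genes of the unfolded protein response (3 of 34 higher, 2 lower), heat shock proteins (2 of 31 in each direction) and splicing factors (4 of 45 higher, 1 lower) had medians of 0.017, -0.0084 and 0.022. Their higher counts were 5 without WT replicate 1, 4 without WT replicate 3, and 8 without WT replicate 3 or 1 without p75NTRko-labelled replicate 1, in that order.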
